A study of Homo sapiens with 6 samples.

Results

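The 39 genes described here encode the core machinery of macroautophagy, its cargo receptors and the MiT/TFE transcription factors that regulate lysosome and autophagy genes. They were taken from a list of names by function, with no measured value in the rule, and all 39 were found among the 57736 Ensembl genes of the count table. All 39 also reached 10 counts in 3 or more libraries, the filter that left 14653 genes to test. The cells were PC3, a human prostate cancer line derived from a bone metastasis. One group of 3 libraries came from cells given a control siRNA (siCTRL) and the other 3 came from cells given an siRNA against Mic60 (siMic60), a structural protein of the mitochondrial inner membrane encoded by IMMT. The same groups carry the labels Mic60 WT and Mic60 KO in another field, and the siRNA names are used here. The time after transfection is not stated in the sources read here. The supplement of the study describes its data in general as coming from independent biological replicates, in a statement that does not single out these libraries, and no label says how the 3 libraries of a group were cultured. If they shared a culture, the p-values would measure technical spread only. Libraries were prepared with the QuantSeq 3′ mRNA kit, in which each transcript is read near its 3′ end.

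Macroautophagy encloses cytoplasm or organelles in a double membrane, the autophagosome, which then fuses with the lysosome. The ULK kinase complex starts the process, and the PIK3C3 lipid kinase marks the membrane with a phosphoinositide that the WIPI proteins read, while ATG9A and the ATG2 proteins bring lipid to the growing membrane. Ubiquitin-like conjugation attaches ATG12 to ATG5 and the ATG8 proteins (LC3 and GABARAP) to membrane lipid, and cargo receptors bridge ubiquitinated cargo to the ATG8 proteins. Damaged mitochondria are one such cargo.

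IMMT (ENSG00000132305) was examined first as a check of the labels. Its level was 88.9, 91.2 and 90.4 CPM, that is counts scaled to library size with TMM normalization, in the siCTRL libraries and 5.83, 7.34 and 8.53 CPM in the siMic60 libraries. The groups were far apart, and the siMic60 level was 8.12% of the control level (log2 fold change −3.62, standard error 0.15, adjusted p = 4.29e-10). Every adjusted p in this text comes from edgeR's quasi-likelihood test with Benjamini-Hochberg adjustment over all tested genes, unless DESeq2 is named, and a gene was called changed when it was under 0.05. Total counts ran from 6644495 to 8779877 per library, so that 3 counts corresponded to 0.346 to 0.46 CPM. Keratin and vimentin genes, EPCAM and other markers of the line summed to 1030 to 1180 CPM in siCTRL and 1200 to 1430 CPM in siMic60 libraries, and KLK3 was the only one of the 8 without a count. Within this list KRT8 (0.62) and VIM (0.60) were higher and KRT18 (−0.53), EPCAM (−0.75) and TMPRSS2 (−1.12) lower in siMic60 cells on the log2 scale, and their part in the autophagy results was not tested. Of 13 leukocyte markers, 6 had no count in any library, and the list summed to 6.04 to 9.47 CPM in siCTRL and 3.69 to 6.24 CPM in siMic60 libraries. The largest part of that sum was KLRD1, at 3.82 to 7.43 CPM in siCTRL and 2.77 to 3.53 CPM in siMic60 libraries. Of 7 fibroblast and endothelial markers found, DCN, VWF and CDH5 were at 0. The 7 summed to 278 to 373 CPM in siCTRL and 47.1 to 68 CPM in siMic60 libraries, nearly all of it COL1A1 at 277 to 370 and 45.8 to 64.9 CPM, and its part in the autophagy results was not tested.

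Of the 39 autophagy genes, 6 were higher and 7 were lower in siMic60 cells, and 26 were not called. The 7 lower genes became 4 without siCTRL library 2 or siMic60 library 2. In those fits 28.9% and 32.2% of all tested genes were called. The 6 that rose were ATG12, ATG3, OPTN, ATG5, CALCOCO2 and SQSTM1. The 7 that fell were ATG10, ULK1, ATG16L1, GABARAPL2, RB1CC1, NBR1 and ATG7. Silencing changed much of the transcriptome, with 35.5% of all tested genes called, 17.7% higher and 17.9% lower. The share of called autophagy genes, 33.3%, was close to that background, and the count itself is therefore not a result about autophagy genes. The same holds for separation between the groups, since 18 of the 39 genes had no overlap between siCTRL and siMic60 libraries (46.2%) against 47.9% of all tested genes. The median log2 fold change was −0.0024 for the 39 genes and 0.0022 for all tested genes, and the median size of the change was 0.27 against 0.37. These backgrounds were not matched for expression. With a minimum of 50 counts, 42% of the genes tested were called. Under that filter 6 of the autophagy genes were higher and 8 lower, and 2 were not tested. In bulk RNA, a lower level can come from fewer cells of one kind or from less RNA per cell, and these cannot be told apart.

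**Figure D1:**
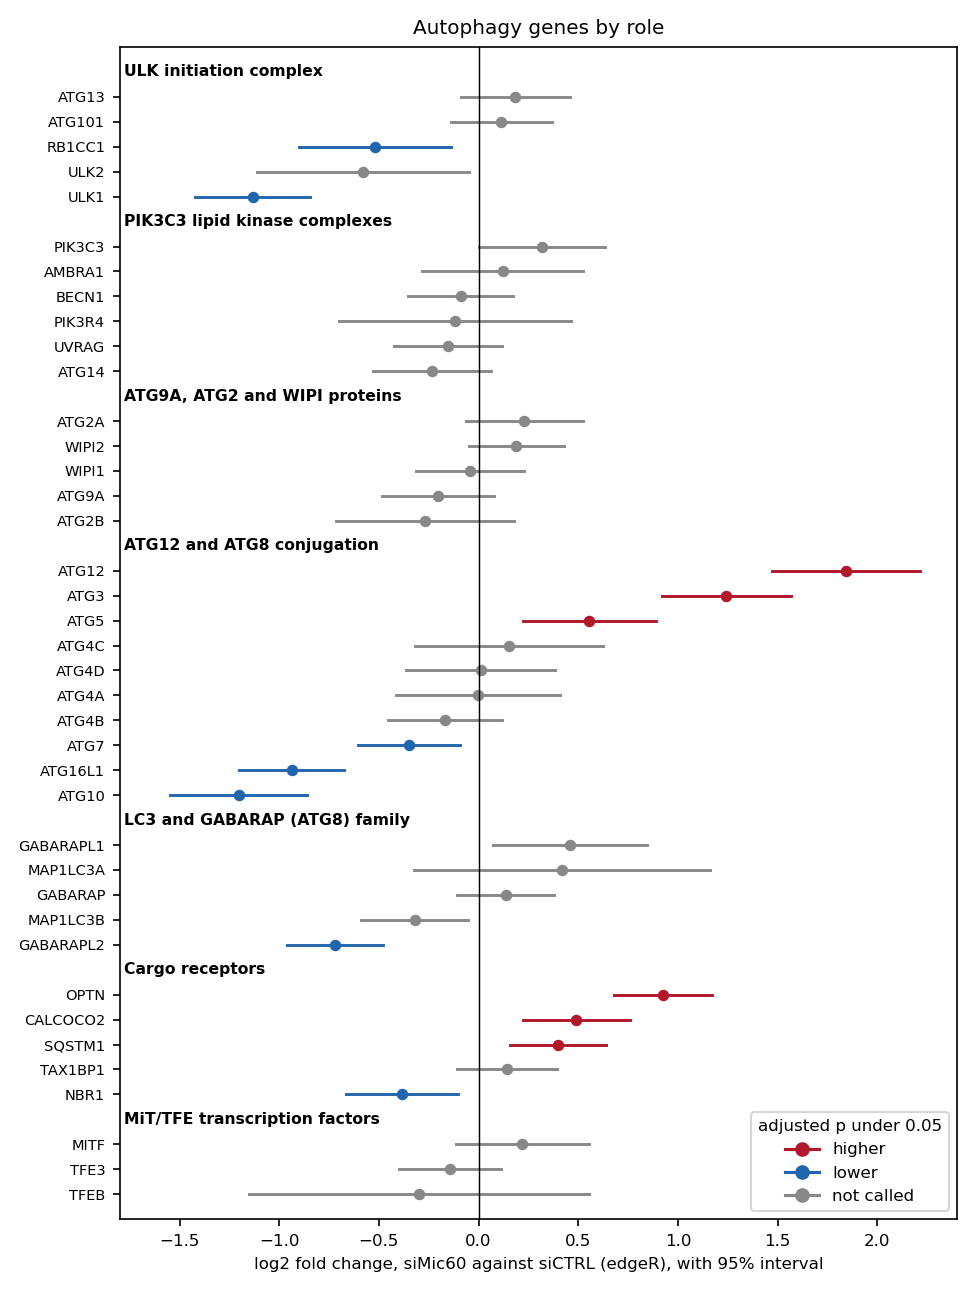
Log2 fold change of the 39 autophagy genes in siMic60 against siCTRL cells (x axis, edgeR, with 95% intervals), ordered by role on the y axis and coloured by call at an adjusted p under 0.05. The calls lie in the ULK complex, the conjugation genes, the ATG8 family and the cargo receptors, from −1.204 for ATG10 to 1.84 for ATG12, and none lies in the PIK3C3 complexes, the ATG9A, ATG2 and WIPI genes or the MiT/TFE factors.

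The sequences around the transcription starts of the conjugation genes with the largest changes are shown first, because ATG12 and ATG3 rose the most and ATG10 fell the most of the 39 genes. The promoters are those of RefSeq (GRCh38.p14), 250 bases before to 50 bases after the annotated start, 5′ to 3′ on the strand of the gene. Capitals mark the E-box core CACGTG, to which MiT/TFE factors bind, and its longer CLEAR form TCACGTGA, which contains the core. Starts are counted from 1 at the first transcribed base.
ATG12, chr5:115841516-115841815, minus strand: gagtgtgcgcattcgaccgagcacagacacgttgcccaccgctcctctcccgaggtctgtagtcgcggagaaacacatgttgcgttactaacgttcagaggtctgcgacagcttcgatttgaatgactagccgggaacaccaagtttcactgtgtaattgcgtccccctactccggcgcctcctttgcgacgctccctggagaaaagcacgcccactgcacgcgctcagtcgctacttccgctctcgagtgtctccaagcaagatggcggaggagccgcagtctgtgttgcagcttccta
ATG3, chr3:112561913-112562212, minus strand: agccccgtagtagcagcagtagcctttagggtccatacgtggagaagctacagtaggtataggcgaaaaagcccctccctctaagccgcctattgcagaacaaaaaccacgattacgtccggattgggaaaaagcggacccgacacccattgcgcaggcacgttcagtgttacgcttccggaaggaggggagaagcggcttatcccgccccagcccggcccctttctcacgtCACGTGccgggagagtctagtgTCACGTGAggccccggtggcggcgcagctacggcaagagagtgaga
ATG10, chr5:81971773-81972072, plus strand: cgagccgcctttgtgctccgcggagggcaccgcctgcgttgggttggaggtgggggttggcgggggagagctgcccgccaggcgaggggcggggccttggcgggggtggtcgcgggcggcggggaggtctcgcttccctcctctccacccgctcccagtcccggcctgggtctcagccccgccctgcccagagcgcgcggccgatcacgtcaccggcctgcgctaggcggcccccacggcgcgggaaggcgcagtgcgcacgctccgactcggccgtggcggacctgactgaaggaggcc
The ATG3 promoter held the core at positions −18 and 6, and the second of these lay inside the CLEAR form that begins at position 5. The ATG12 and ATG10 windows held neither form.

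Promoters were found for 35 of the 39 genes, 47 promoters in all, and were searched on both strands. The E-box core was present in 2 of the 47 (4.26%), those of ATG3 and ATG14, against 2548 of all 35116 promoters of the same length (7.26%). The CLEAR form was present in 1 (2.13%), that of ATG3, against 344 of all promoters (0.98%). The core of the interferon-stimulated response element, written AAANNGAAA, was searched because silencing of Mic60 is tied to interferon signaling in the study. It was present in 4 of the 47 promoters (8.51%) and in 3681 of all promoters (10.5%). The matches, with 15 bases on each side or fewer at the window's edge and the motif in capitals, show the different settings.
ATG14, chr14:55411831-55411866, minus strand, E-box core at position −21: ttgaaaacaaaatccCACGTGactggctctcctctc
ATG5, chr6:106316249-106316287, minus strand, response element core on the opposite strand at position −6: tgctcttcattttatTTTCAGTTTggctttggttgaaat
CALCOCO2, chr17:48830785-48830822, plus strand, response element core at position −236: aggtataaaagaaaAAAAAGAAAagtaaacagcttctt
NBR1, chr17:43170368-43170406, plus strand, response element core at position −26: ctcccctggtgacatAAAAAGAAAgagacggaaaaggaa
WIPI2, chr7:5214203-5214241, plus strand, response element core on the opposite strand at position −51: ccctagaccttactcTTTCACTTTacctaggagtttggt
These 5 genes had different outcomes, ATG5 and CALCOCO2 being higher, NBR1 lower and ATG14 and WIPI2 not called. A match is a stretch of letters only and says nothing about whether a factor was bound. ATG5, NBR1 and WIPI2 each have 2 promoters in the table, and the match lay in one of them.

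Among the 5 genes of the ULK initiation complex, 2 fell and none was higher by edgeR, DESeq2, limma-trend or at an unadjusted edgeR p under 0.05. The share called, 40%, was near the 35.5% of all tested genes, so the count is not a result about this complex. ULK1 (ENSG00000177169), the kinase that starts autophagosome formation, was at 261, 184 and 206 CPM in siCTRL libraries and at 96.0, 102 and 99.0 CPM in siMic60 libraries. The lowest control library was well above the highest silenced one, and the siMic60 level was 45.6% of control (log2 fold change −1.13, standard error 0.14, adjusted p = 1.56e-05). RB1CC1 (ENSG00000023287), the large scaffold also called FIP200, was at 26.1, 36.9 and 38.0 CPM in siCTRL and at 27.0, 18.6 and 25.0 CPM in siMic60 libraries. It was the only called gene of the 39 whose groups overlapped, through siCTRL library 1 and siMic60 library 1. Its log2 fold change of −0.52 (standard error 0.18, adjusted p = 0.0338) lost the call without siCTRL library 2 (−0.45, adjusted p = 0.111), without siCTRL library 3 (−0.43, 0.117), without siMic60 library 2 (−0.36, 0.157) and without siMic60 library 3 (−0.57, 0.0603). ULK2, the second ULK kinase, had a log2 fold change of −0.58 with no overlap between the groups (6.35 to 7.89 against 4.16 to 4.96 CPM) but was not called (adjusted p = 0.0842). The partners ATG13 and ATG101, which hold the complex together, differed by 0.18 and 0.11, and both intervals lay within 0.46 of no change. The ratio of ULK1 to ATG13 counts, taken after the values had been seen, was 3.36 to 4.01 in siCTRL and 1.26 to 1.66 in siMic60 libraries.

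None of the 6 genes of the PIK3C3 lipid kinase complexes was called by edgeR, DESeq2 or limma-trend, and only PIK3C3 itself had an unadjusted edgeR p under 0.05. By edgeR, 35.5% of all tested genes were called. The kinase PIK3C3 had the largest difference of the 6, with 29.2 to 32.6 CPM in siCTRL and 33.2 to 46.1 CPM in siMic60 libraries, and its groups did not overlap (log2 fold change 0.32, 95% interval 0.00 to 0.63, adjusted p = 0.11). BECN1, the regulatory subunit beclin 1, was at 71.9 to 83.8 CPM in siCTRL and 66.8 to 80.6 CPM in siMic60 libraries, a log2 fold change of −0.09. ATG14, which directs the complex to autophagosome formation, differed by −0.23, UVRAG, which takes its place in the endosomal complex, by −0.15, the scaffold PIK3R4 by −0.12 and the beclin 1 partner AMBRA1 by 0.12. PIK3R4 was read at 28 to 59 counts per library, and its 95% interval ran from −0.70 to 0.47, so that a change of moderate size was not detectable at this depth.

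The 5 genes for lipid supply and phosphoinositide binding were not called by any of the 3 tools either, and none had an unadjusted edgeR p under 0.05. Here too the share called over all tested genes was 35.5% by edgeR. The lipid scramblase ATG9A differed by −0.20, the lipid transfer proteins ATG2A and ATG2B by 0.23 and −0.27, and the phosphoinositide-binding WIPI1 by −0.04. WIPI2, which recruits ATG16L1 to the membrane, was at 155 to 174 CPM in siCTRL and 180 to 197 CPM in siMic60 libraries, and although these ranges did not overlap the difference of 0.19 did not pass the test (adjusted p = 0.202).

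The ATG12 and ATG8 conjugation genes had 6 calls in 10 genes, 3 in each direction, where 35.5% of all tested genes were called. ATG12 (ENSG00000145782), the ubiquitin-like protein that is joined to ATG5, was at 57.8, 87.8 and 84.3 CPM in siCTRL and at 342, 244 and 239 CPM in siMic60 libraries. Its rise was the largest of the 39 genes, 3.59-fold in siMic60 cells (log2 fold change 1.84, standard error 0.17, adjusted p = 1.49e-06). The lowest silenced library was far above the highest control library. ATG3 (ENSG00000144848), the E2-like enzyme that passes ATG8 proteins to lipid, was at 16.9, 24.4 and 19.9 CPM in siCTRL and at 46.3, 52.4 and 45.9 CPM in siMic60 libraries, again with a wide gap. It rose 2.37-fold in siMic60 cells (log2 fold change 1.24, standard error 0.15, adjusted p = 1.95e-05). ATG5 (ENSG00000057663), the acceptor of ATG12, was at 20.02, 19.9 and 24.3 CPM in siCTRL and at 36.8, 27.5 and 30.2 CPM in siMic60 libraries. Its groups did not overlap, and it rose 1.47-fold in siMic60 cells (log2 fold change 0.55, standard error 0.16, adjusted p = 0.0124), a call that was lost without siCTRL library 2 (0.50, adjusted p = 0.056) and without siMic60 library 1 (0.44, 0.0588).

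In the opposite direction, ATG10 (ENSG00000152348), the E2-like enzyme that passes ATG12 to ATG5, was at 26.4, 22.8 and 23.9 CPM in siCTRL and at 11.4, 10.3 and 10.2 CPM in siMic60 libraries. It fell to 43.4% of control, the largest decrease of the 39 genes (log2 fold change −1.204, standard error 0.16, adjusted p = 4.55e-05). ATG16L1 (ENSG00000085978), which binds the ATG12 and ATG5 conjugate and places it on the membrane, was at 106, 86.1 and 95.1 CPM in siCTRL and at 51.8, 47.0 and 51.1 CPM in siMic60 libraries. It fell to 52.2% of control with no overlap (log2 fold change −0.94, standard error 0.12, adjusted p = 3.79e-05). ATG7 (ENSG00000197548), the E1-like enzyme that activates both ATG12 and the ATG8 proteins, was at 49.98, 46.9 and 49.4 CPM in siCTRL and at 37.4, 37.5 and 40.0 CPM in siMic60 libraries. The groups did not overlap, but its fall was small (log2 fold change −0.35, standard error 0.12, adjusted p = 0.0355) and the call was lost when any of the 6 libraries was left out, with values of −0.38 to −0.32 and adjusted p from 0.0524 to 0.0996. The ATG4 proteases, which prepare and release ATG8 proteins, were not called, with differences of 0.00 for ATG4A, −0.17 for ATG4B, 0.15 for ATG4C and 0.01 for ATG4D.

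Some pairs of conjugation genes that act next to each other went in opposite directions, while ATG12 and ATG5 both rose and ATG7 and ATG10 both fell. Read as ratios of counts within a library, which do not depend on the scaling of libraries, ATG12 to ATG16L1 was 0.546, 1.02 and 0.887 in siCTRL and 6.59, 5.20 and 4.68 in siMic60 libraries. The ratio of the E2-like enzymes ATG3 to ATG10 was 0.641, 1.07 and 0.830 in siCTRL and 4.08, 5.10 and 4.52 in siMic60 libraries. These pairs were chosen after the values had been seen, and the ratios are given as a description with no test. ATG12 to ATG5, the 2 partners of one conjugate, went from a mean of 3.59 to 8.69.

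**Figure D2:**
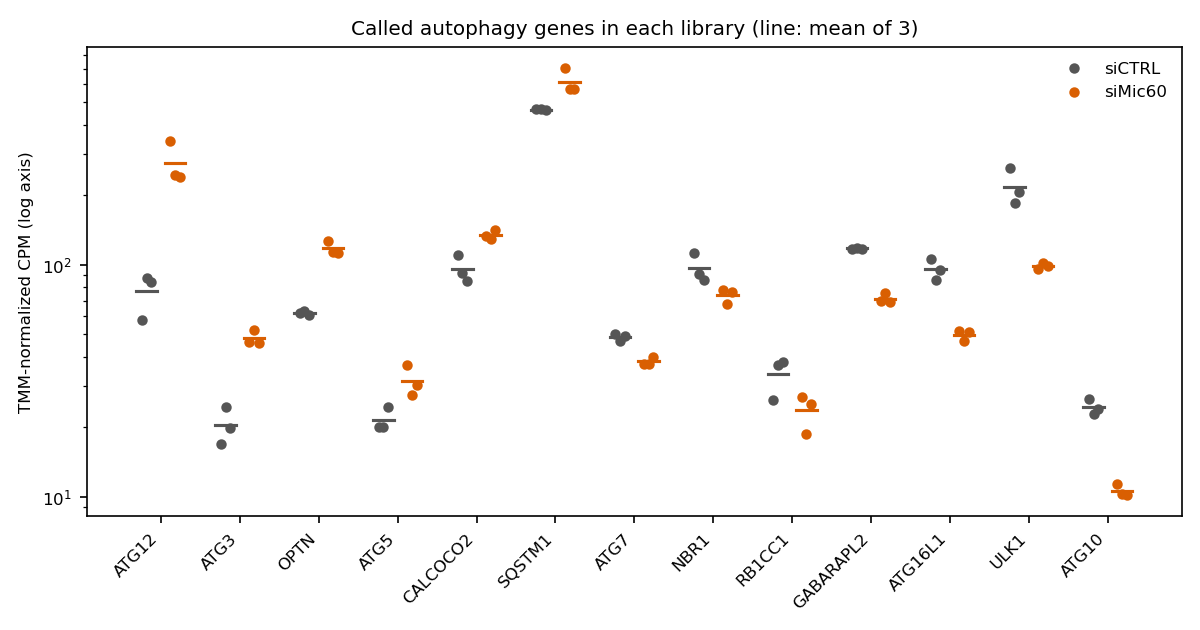
TMM-normalized CPM (y axis, log scale) of the 13 called autophagy genes (x axis) in each siCTRL and siMic60 library; points are libraries and lines are means of 3. ATG12 stands at 57.8 to 87.8 CPM in siCTRL and 239 to 342 CPM in siMic60 libraries, and RB1CC1 is the only gene of the 13 whose points overlap.

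The ATG8 family showed 1 call in 5 genes (20%), where 35.5% of all tested genes were called. GABARAPL2 (ENSG00000034713), also known as GATE-16, was at 117, 118 and 117 CPM in siCTRL and at 69.5, 75.3 and 68.8 CPM in siMic60 libraries. The libraries of each group lay close together, and it fell to 60.6% of control (log2 fold change −0.72, standard error 0.11, adjusted p = 0.000173). MAP1LC3B (ENSG00000140941), the LC3 protein most often used as an autophagosome marker, was at 92.5, 94.4 and 102 CPM in siCTRL and at 69.5, 72.9 and 88.7 CPM in siMic60 libraries. These did not overlap, but the log2 fold change of −0.32 (standard error 0.13) narrowly missed the threshold (adjusted p = 0.0599), and without siMic60 library 3 it passed (−0.43, adjusted p = 0.0231). GABARAPL1 (ENSG00000139112) was at 25.3, 19.1 and 16.6 CPM in siCTRL and at 22.8, 28.6 and 32.2 CPM in siMic60 libraries. Its groups overlapped, and its log2 fold change of 0.46 (standard error 0.18, adjusted p = 0.0614) passed only without siCTRL library 1 (0.64, adjusted p = 0.0115) or without siMic60 library 1 (0.59, 0.0303) among the 6 libraries left out in turn. GABARAP (ENSG00000170296) was at 128, 113 and 112 CPM in siCTRL and at 124, 130 and 134 CPM in siMic60 libraries, an overlapping pattern with a log2 fold change of 0.14 (adjusted p = 0.382). MAP1LC3A (ENSG00000101460) was near the limit of detection, at 2.28, 1.88 and 3.70 CPM in siCTRL and at 3.37, 3.55 and 3.57 CPM in siMic60 libraries, with 15 to 31 counts each. Its log2 fold change of 0.42 had a 95% interval of −0.32 to 1.16, too wide to place.

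The family was also read as shares of its summed counts within each library, tested by two-sided exact permutation of the libraries, for which 3 against 3 cannot give a p under 0.1. A 3′ library reads each transcript near its end, so these shares do not depend on transcript length as shares in full-length libraries would. GABARAPL2 gave 32.1, 34.0 and 33.4% of the family counts in siCTRL and 24.0, 24.3 and 21.0% in siMic60 libraries, a difference of −10.1 percentage points (exact permutation p = 0.1). GABARAP gave 35.0, 32.7 and 31.9% in siCTRL and 42.9, 41.9 and 41.0% in siMic60 libraries, 8.73 points more (exact permutation p = 0.1). Shares within a library depend on each other, since a loss in one gene raises the shares of the others. The GABARAP level itself was not called (log2 fold change 0.14, adjusted p = 0.382). The GABARAPL1 share was 5.73% and 8.99% on average with no overlap, and that of MAP1LC3B, 27.2% and 24.9%, overlapped (exact permutation p = 0.1 and 0.2). GABARAP and GABARAPL2 had near-equal shares in each control library, and GABARAP had the largest share of the family in all 3 silenced libraries. The 95% exact binomial interval of a share was at most 2.26 points on either side, for counting error only. Summed over the family, the level was 365, 347 and 352 CPM in siCTRL and 289, 310 and 328 CPM in siMic60 libraries, a ratio of 0.872 with no overlap (exact permutation p = 0.1).

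Of the 5 cargo receptors, 3 rose, 1 fell and 1 was not called, where 17.7% of all tested genes were higher and 17.9% lower. OPTN (ENSG00000123240), optineurin, a receptor for ubiquitinated mitochondria and bacteria, was at 61.6, 63.4 and 60.7 CPM in siCTRL and at 127, 113 and 113 CPM in siMic60 libraries. The groups were tight and well apart, and it rose 1.90-fold in siMic60 cells (log2 fold change 0.92, standard error 0.12, adjusted p = 2.37e-05). CALCOCO2 (ENSG00000136436), the receptor NDP52, was at 110, 91.6 and 84.9 CPM in siCTRL and at 132, 129 and 141 CPM in siMic60 libraries. It rose 1.404-fold without overlap (log2 fold change 0.49, standard error 0.13, adjusted p = 0.00695). SQSTM1 (ENSG00000161011), the receptor p62, was at 469, 467 and 462 CPM in siCTRL and at 702, 570 and 571 CPM in siMic60 libraries. It rose 1.32-fold in siMic60 cells (log2 fold change 0.40, standard error 0.11, adjusted p = 0.0128), with siMic60 library 1 standing above the other silenced libraries, and without that library the log2 fold change was 0.30 (adjusted p = 0.067).

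NBR1 (ENSG00000188554), a receptor related to p62 that also acts on peroxisomes, was at 112, 90.9 and 85.4 CPM in siCTRL and at 77.7, 67.3 and 76.6 CPM in siMic60 libraries. The groups were close but did not overlap, and it fell to 76.7% of control (log2 fold change −0.38, standard error 0.13, adjusted p = 0.0345). The call was lost without siCTRL library 1 (−0.26, adjusted p = 0.134), siCTRL library 2 (−0.43, 0.0532), siMic60 library 1 (−0.41, 0.0555), siMic60 library 2 (−0.31, 0.127) or siMic60 library 3 (−0.41, 0.0609). TAX1BP1 (ENSG00000106052), a receptor related to NDP52, was at 260, 247 and 226 CPM in siCTRL and at 301, 247 and 261 CPM in siMic60 libraries, with overlap and a log2 fold change of 0.14 (adjusted p = 0.368). Within the receptor counts of a library, OPTN had 6.08 to 6.61% in siCTRL and 9.47 to 10.03% in siMic60 libraries. NBR1 had 9.30 to 11.1% and 5.80 to 6.59%, so that the order of these receptors was exchanged in every silenced library (exact permutation p = 0.1 for each). The shares of SQSTM1 (means of 48.4% and 50.7%) and CALCOCO2 (9.89% and 11.2%) overlapped between the groups, and that of TAX1BP1 was 25.3% and 22.3% (exact permutation p = 0.2, 0.2 and 0.1). These shares also depend on each other, and the TAX1BP1 level itself was not called. Summed, the 5 receptors were at 1013, 960 and 919 CPM in siCTRL and 1340, 1127 and 1162 CPM in siMic60 libraries, 1.26 times the control level with no overlap (exact permutation p = 0.1).

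**Figure D3:**
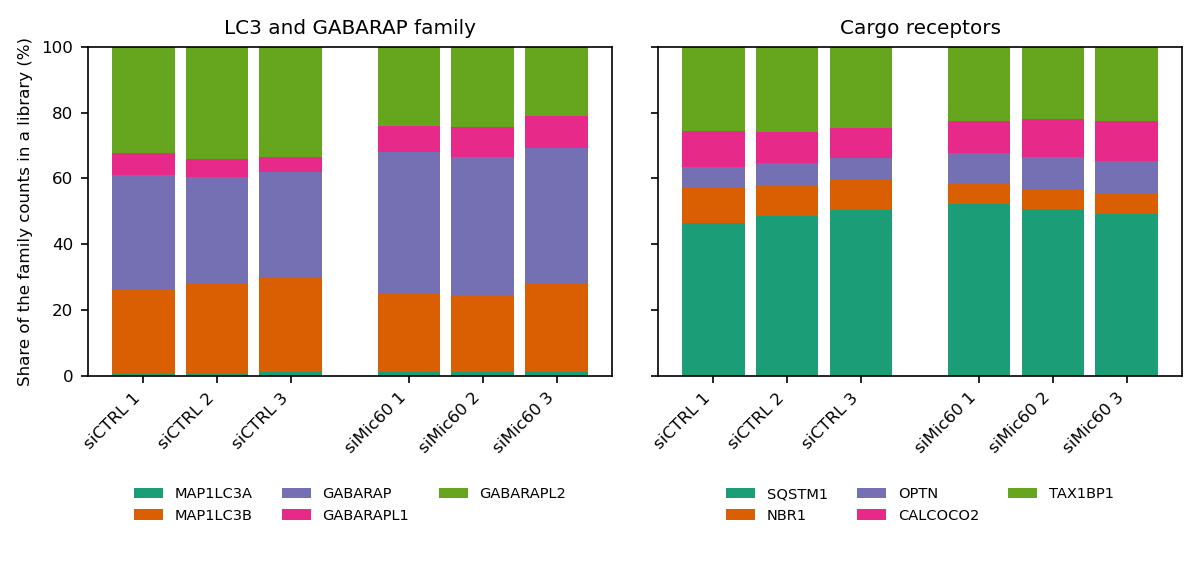
Share of each gene in the summed counts of its family (y axis, %) in each library (x axis), for the ATG8 family on the left and the cargo receptors on the right. The mean GABARAPL2 share is 33.2% in siCTRL and 23.1% in siMic60 libraries against 33.2% and 41.9% for GABARAP, and the mean OPTN share is 6.43% and 9.73%.

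None of the 3 MiT/TFE factors was called by edgeR, DESeq2 or limma-trend, and none had an unadjusted edgeR p under 0.05. Over all tested genes, edgeR called 35.5%. TFE3 (ENSG00000068323) was at 48.1, 45.2 and 47.6 CPM in siCTRL and at 41.9, 44.4 and 41.2 CPM in siMic60 libraries, slightly lower in every silenced library but with a log2 fold change of only −0.14 (adjusted p = 0.382). MITF (ENSG00000187098) was at 18.6, 21.4 and 16.3 CPM in siCTRL and at 21.8, 22.4 and 21.3 CPM in siMic60 libraries, with overlap and a log2 fold change of 0.22 (adjusted p = 0.297). TFEB (ENSG00000112561) was scarcely read, at 2.76, 1.88 and 4.19 CPM in siCTRL and at 2.45, 1.59 and 3.11 CPM in siMic60 libraries, with 13 to 34 counts each. The 95% interval of its log2 fold change ran from −1.15 to 0.55, and no difference was detectable at this depth. These factors are controlled largely by where in the cell they are, which mRNA counts do not report.

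Over the 26 genes not called, log2 fold changes ran from −0.58 for ULK2 to 0.46 for GABARAPL1. For 17 of the 26 the 95% interval lay within 1.5-fold of no change in both directions, and for the others it reached beyond that size in at least one direction. An unadjusted p under 0.05 was reached by 4 of the 26, ULK2, PIK3C3, MAP1LC3B and GABARAPL1. There was no overlap between the groups for 6 of the 26, namely ULK2, PIK3C3, ATG2B, WIPI2, MAP1LC3B and TFE3. Over all tested genes, called or not, the share without overlap was 47.9%.

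Genes of the wider pathway were read from 4 lists put together by function, with earlier results of these data known. What part that choice had in the counts of called genes was not tested. Of 23 other genes of autophagosome formation, tethering and fusion, 19 were tested, 7 were higher and 5 were lower. RUBCN, the PIK3C3 inhibitor Rubicon, rose the most, from 51.8 to 66.4 CPM in siCTRL to 151 to 209 CPM in siMic60 libraries (log2 fold change 1.61, adjusted p = 8.69e-07). EPG5, a tether of autophagosomes to lysosomes, also rose (1.13, adjusted p = 0.000573), whereas the tether TECPR1 fell (−1.29, adjusted p = 7.26e-06), as did the membrane-curving protein SH3GLB1 (−0.63, adjusted p = 0.000802). The 12 called genes were 63.2% of those tested, against 35.5% of all tested genes, with no test of the list, and the median of the list was 0.03 on the log2 scale. The count of higher genes was 3 to 5 when single libraries were left out, 3 without siCTRL library 2 or siMic60 library 3 and 4 without siCTRL library 3 or siMic60 library 1.

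Of 19 receptors of organelles and other cargo, 17 were tested, 2 were higher and 4 were lower (median 0.12). The share called, 35.3%, was that of all tested genes, 35.5%, so the count is not a result about these receptors. The mitochondrial receptor BCL2L13 rose from 31.6 to 39.7 CPM in siCTRL to 75.5 to 93.9 CPM in siMic60 libraries (log2 fold change 1.202, adjusted p = 8.75e-06). BNIP3, a mitophagy receptor induced in hypoxia, rose as well (0.82, adjusted p = 0.00105), with siMic60 library 3 at 131 CPM above the others at 83.0 and 86.2 CPM. NIPSNAP1 and NIPSNAP2, matrix proteins displayed on damaged mitochondria, both fell (−1.05, adjusted p = 1.55e-05 and −0.98, adjusted p = 5.54e-05).

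Among 33 regulators of mTORC1, TSC and AMPK, the kinases and sensors that set autophagy by nutrient and energy state, 31 were tested, 5 were higher and 10 were lower (48.4% called, median 0.07). Of all tested genes, 35.5% were called, 17.7% higher and 17.9% lower. PRKAA2, a catalytic subunit of AMPK, fell from 56.2 to 61.01 CPM in siCTRL to 20.5 to 26.2 CPM in siMic60 libraries (log2 fold change −1.31, adjusted p = 3.34e-06), and the AMPK subunit PRKAB2 rose (0.85, adjusted p = 0.000206). Among the other AMPK subunits listed, PRKAB1 fell (−0.62, adjusted p = 0.0157) and PRKAG2 rose (0.60, adjusted p = 0.0119). PRKAA1 (0.10, adjusted p = 0.618) and PRKAG1 (0.32, adjusted p = 0.0512) were not called. Of the sestrins, stress-induced inhibitors of mTORC1 signaling, SESN1 was not called (−0.28, adjusted p = 0.558). SESN2 rose (1.04, adjusted p = 3.86e-05), and SESN3, read at 1 to 8 counts per siMic60 library, fell (−2.42, adjusted p = 0.0013). The 10 lower genes became 5 without siCTRL library 1 or siMic60 library 3 and 6 without siMic60 library 1.

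Of 20 lysosomal genes known as TFEB targets, 19 were tested, 6 were higher and none was lower (median 0.00). The share called, 31.6%, was below the 35.5% of all tested genes, and the share of all tested genes called higher was 17.7%; no test was made of the list. LAMP1, an abundant glycoprotein of the lysosomal membrane, was at 138, 130 and 138 CPM in siCTRL and at 422, 416 and 425 CPM in siMic60 libraries, a rise of 3.12-fold with little spread (log2 fold change 1.64, adjusted p = 2.8e-08). The lysosomal hydrolases SGSH and GLA rose less, by 0.61 (adjusted p = 0.00724) and 0.96 (adjusted p = 0.0368) on the log2 scale. The GLA call held only without siMic60 library 1 among the 6 libraries left out (adjusted p = 0.055 to 0.125 for the others), and GLA was not called by DESeq2 (adjusted p = 0.0634). The 6 higher genes became 2 without siCTRL library 2 or siMic60 library 2 and 3 without siCTRL library 3 or siMic60 library 3, and 1 gene was lower without siMic60 library 2. No gene of the list was lower by edgeR, DESeq2, limma-trend or at an unadjusted edgeR p under 0.05, and 7 were higher at that unadjusted p.

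**Figure D4:**
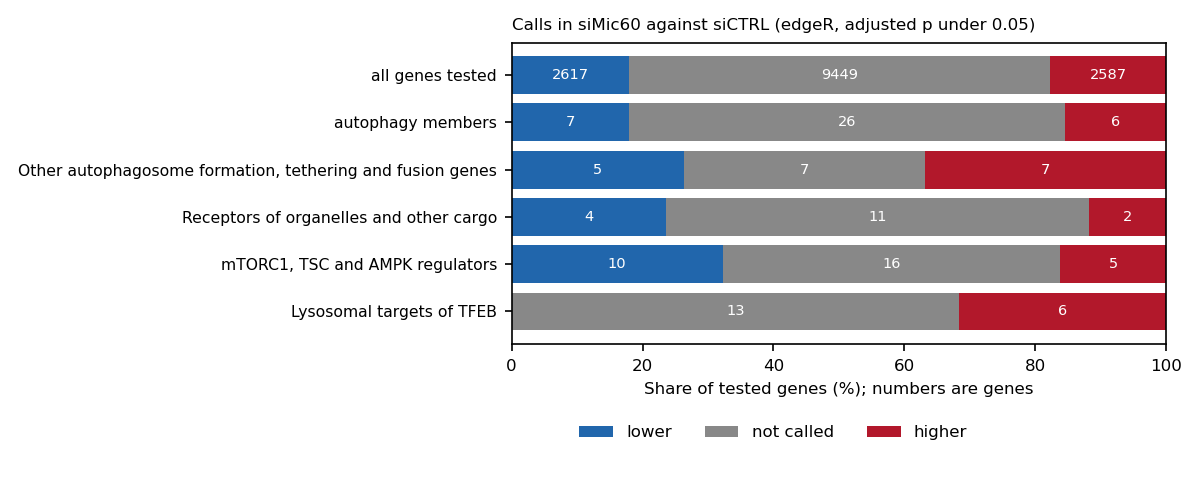
Share of tested genes (x axis, %) called lower, not called and called higher in siMic60 against siCTRL cells, for all tested genes, the 39 autophagy genes and the 4 lists of related genes, with numbers of genes printed in the bars. The autophagy genes, 7 lower and 6 higher of 39, have nearly the proportions of all tested genes, 2617 lower and 2587 higher of 14653.

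Some of these counts may include reads of neighbouring genes, because no source read here gives the strand setting of the counting. In GENCODE 29, exons of 20 of the 39 genes overlap exons of another gene, for 12 of them a gene with over 100 counts in the 6 libraries. Of the called genes, ATG12 overlaps AP3S1, which was also higher (0.86, adjusted p = 0.00132), and ATG3 overlaps SLC35A5, which was higher too (0.77, adjusted p = 0.0123), each on the opposite strand and outside the last 500 bases of the autophagy gene. ATG7 overlaps VGLL4 at its 3′ end, and both were lower (−0.62 for VGLL4, adjusted p = 0.00107). ATG10 overlaps RPS23, which had 1882 to 3441 counts per library against 74 to 220 for ATG10. SQSTM1 overlaps MGAT4B and, at its 3′ end, MRNIP. RPS23, MGAT4B and MRNIP were not called. The part of these neighbours in the autophagy results was not tested. Of 9 processed copies and near-identical relatives looked up, 8 had no count, and MAP1LC3B2 had 3 counts over the 6 libraries.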

How the data were processed

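The authors deposited counts, 1 column per library, as whole numbers with no normalization, for 57736 Ensembl genes in 6 libraries of PC3 cells (3 siCTRL, 3 siMic60). RSEM 1.2.3, a tool that estimates counts, DESeq2 and the hg19 (GRCh37) build are named in the submitters' processing notes. Neither aligner, annotation nor strand setting is given in the sources used here. Symbols were matched for 52301 rows, 39501 through current names and the rest through GENCODE 29.

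The quasi-likelihood test of edgeR 4.0.16 (R 4.3.3) was run after TMM normalization on genes reaching 10 counts in 3 or more libraries, and p-values were adjusted by Benjamini-Hochberg with a threshold of 0.05. Intervals are 95% intervals from the standard error. Total counts of 6644495 to 8779877 set the precision, 3 counts being at most 0.46 CPM. Within a group, libraries differed by more than sampling noise (chi-square per degree of freedom 3.54 to 13.5). Each was counted as 1 replicate, though this spread cannot show whether they came from separate cultures. Shares and family sums were compared by exact permutation of the libraries. The edgeR step was tested on simulated data with known answers. For a true difference of 1.5-fold it found only 15 genes where 72 had been altered. For 2-fold the figures were 57 against 75, and for 4-fold 45 against 49. Among 14211 unaltered genes it called 10. Small differences were thus often missed in the simulation. Far fewer genes were altered there than were called in these data, and whether the same rates hold here was not tested.

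The members and lists were chosen with earlier results of these data known. Every member was named. Values in each library were given for those 3 called members of each role whose adjusted p was smallest and for all ATG8 genes, receptors and MiT/TFE factors, to which ATG5, ATG7 and ATG10 were added later. In the other lists 4 called genes were named, those of smallest adjusted p, except 1 that is not reported here. AP3S1, SLC35A5, VGLL4 and other neighbours were chosen after values were seen. So were COL1A1, KLRD1, SESN1, PRKAA1, PRKAB1, PRKAG1, PRKAG2 and the markers of the line that are given with values. Of the listed genes NCOA4 and PECAM1 had no match.

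Alternatives were DESeq2 1.42.0, limma-trend (limma 3.58.1, prior count 2), edgeR's test against a 1.2-fold change, scaling by the size factors of DESeq2 or by library totals, dropping the filter or raising it to 50 counts, adding a replicate block, and leaving out single libraries. Promoters came from RefSeq (GRCh38.p14) by symbol, with no conversion between builds.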

Additional observations from a re-analysis of the deposited data

How the results depend on the processing

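All 13 calls among the autophagy genes were kept with DESeq2, limma-trend, DESeq2's size factors, library totals and a minimum of 50 counts, and MAP1LC3B was added under the last 2. Without a minimum count, ATG7 was lost and GABARAPL1 added. ULK1, ATG3, ATG10, ATG12, ATG16L1, GABARAPL2 and OPTN were called under every alternative, including the test against a 1.2-fold change, which left 3 members higher and 4 lower. That test called 24.7% of all tested genes. With each library left out in turn, 5 to 7 members were higher and 4 to 5 lower. These fits called 28.9 to 32.2% of all tested genes. Under that 1.2-fold test, 2 autophagosome genes were higher, 4 mTORC1, TSC and AMPK regulators lower and 2 TFEB targets higher. Library totals, which moved the median of all genes to −0.05, left 3 autophagosome genes and 3 TFEB targets higher, and a minimum of 50 counts left 3 TFEB targets higher. Leaving out single libraries gave 3 to 5 higher autophagosome genes, 5 to 8 lower mTORC1, TSC and AMPK regulators, 2 to 6 higher TFEB targets and 0 to 1 lower TFEB target. The cause of these changes was not tested, except that fewer libraries or genes enter some of these fits. With the replicate block, 12 of the 13 member calls were kept, ATG7 being lost (adjusted p = 0.0624), and 2 TFEB targets were higher, with 4766 genes called in all against 5204. Same-numbered libraries deviated from their group means with correlations of −0.102, −0.0311 and 0.0293, and not every library correlated best with its own number. No label says whether libraries of the same number were prepared together, and with 3 libraries per group these correlations cannot decide it. No direction of a called value turned under any alternative. Depth limits MAP1LC3A, TFEB and PIK3R4, whose intervals are wide, and the 3 libraries per group limit the permutation tests to a smallest p of 0.1.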
